A study of Mus musculus with 15 samples.

Results

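Apobec1, Apobec2 and Apobec3, genes of the Apobec family of deaminases, were followed through cardiac and hepatic allografts of the mouse. They were found by matching the transcript accession of every probe to a RefSeq symbol, which gave 3 genes of 32301 gene names and 4 probes of 41174, 2 for Apobec1 and 1 each for Apobec2 and Apobec3. Apobec2 was chosen by its measured signal in these arrays, which differed between allografts and controls in opposite directions in the heart and the liver, so its levels are described without a test.

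APOBEC proteins are a family of zinc-dependent enzymes that remove an amino group from cytidine in RNA or DNA and so turn it into uridine. Apobec1 edits the messenger RNA of apolipoprotein B together with an RNA-binding partner, and Apobec3 restricts retroviruses and mobile elements by deaminating their DNA. Apobec2 is found mainly in cardiac and skeletal muscle, and no editing target of it is firmly established.

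The data came from 15 single-colour Agilent arrays of total RNA from male mice, 3 for each of 5 groups. Cardiac allografts were hearts of B10 donors placed in the abdomen of CBA recipients and taken on postoperative day 5 (POD5). Hepatic allografts were livers of B10.BR donors placed in B10.D2 recipients and taken at POD5 or at POD8. The cardiac and hepatic control groups are described as normal tissue in the labels and methods and as isografts in the results of the study, so they are called controls, and their strain and age were not given in the sources used here. Each allograft holds cells of the donor organ and of the recipient that entered it. Donor and recipient strains also differed between the organs, so organ and strain combination cannot be told apart.

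Labels and markers agreed on the organs, with all 12 cardiomyocyte markers higher in the cardiac than in the hepatic controls and all 8 hepatocyte markers lower. In this comparison 24.1% of all genes were called higher and 23.5% lower. The share of probes well above background was 52.5% to 70.5% per array. It was 52.5% to 57.0% in the hepatic controls and 56.2% to 67.0% in the cardiac allografts. The arrays also differed in brightness before scaling. The 75th percentile of the processed signal was 87.7 to 216 in the hepatic controls and 319 to 452 in the hepatic allografts. It was 363 to 652 in the cardiac allografts and 938 to 1154 in the cardiac controls. Unscaled signals of different groups therefore also carry this difference. The 3 cardiac allografts shared slide 1 with hepatic POD5 allograft 3, the 3 cardiac controls filled slide 2, and hepatic POD8 allografts 1 and 2 shared slide 4 with hepatic controls 1 and 2. In the heart, group and slide cannot be told apart, and no slide held controls of both organs. The hepatic POD5 allografts shared no slide with the hepatic controls or the POD8 allografts. Group and slide therefore cannot be told apart in those comparisons either. Nothing in the labels says that the arrays of a group came from separate animals, so a p-value measures the spread between these arrays.

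The promoter of Apobec2 is shown because the level of this gene differed most widely between the organs among the family. The 250 bases before its RefSeq start lie on the minus strand of mouse build GRCm38.p6 at chr17:48432729-48432978, and the capitals mark matches to TATAAA and CANNTG on either strand.
Apobec2: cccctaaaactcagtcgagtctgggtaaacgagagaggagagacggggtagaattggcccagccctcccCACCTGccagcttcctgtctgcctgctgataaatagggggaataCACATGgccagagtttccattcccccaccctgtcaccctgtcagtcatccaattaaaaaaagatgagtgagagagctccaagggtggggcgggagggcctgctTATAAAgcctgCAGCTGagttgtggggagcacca
The letters TATAAA began 34 bases before the start, and were found in this window of 12.4% of 32851 mouse promoters. CANNTG, the letters bound by muscle regulatory factors and many other proteins, began 181, 137 and 23 bases before the start, and 66.2% of promoters held it. The copy nearest to the start read CAGCTG, which also counts as a CANNTG match, and 13% of promoters held these letters. No match was found to the MEF2 motif or the SRF CArG box, which were in 0.508% and 1.47% of promoters. A match is a description of letters, and binding was not measured.

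Apobec2 gave a bright signal in the heart. The processed signals, in the linear units of the scanner software, were 67940, 77047 and 67069 in the 3 cardiac controls and 23509, 20503 and 18130 in the 3 cardiac allografts. After quantile normalization the log2 levels were 15.01, 15.27 and 15.04 in the controls and 14.25, 14.22 and 13.92 in the allografts. Every cardiac allograft lay below every control, a pattern that 25.5% of all probes shared in this comparison. The mean log2 level was 15.11 ± 0.14 (SD, n = 3) in the controls and 14.13 ± 0.18 (SD, n = 3) in the allografts, 1.97-fold lower.

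In the liver the direction was the opposite. Apobec2 was not well above background on any of the 3 hepatic control arrays, whose processed signals were 1.39, 1.38 and 2.57. At POD5 the 3 hepatic allografts had signals of 182, 301 and 310, and their log2 normalized levels were 7.35, 8.32 and 8.65. All 3 allografts were well above background and lay above all controls, as 12.4% of probes did in this comparison. Allograft 3, the highest, shared a slide with the cardiac allografts, and allografts 1 and 2 were on a slide of their own.

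At POD8 the hepatic allografts had Apobec2 signals of 64.9, 72.6 and 61.1 and log2 levels of 6.27, 6.37 and 5.79. These values lay above all controls, as 12.9% of probes did, and below all 3 POD5 allografts, as 10.4% of probes did. The mean log2 level was 8.11 ± 0.67 (SD, n = 3) at POD5 and 6.14 ± 0.31 (SD, n = 3) at POD8, 3.89-fold lower at the later day.

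Because the hepatic controls were below background, the differences from them are lower bounds, set against the weakest signal that was well above background on each control array. Relative to the hepatic controls, Apobec2 was at least 13.7-fold higher in the POD5 allografts. In the POD8 allografts it was at least 3.51-fold higher. Leaving out 1 array at a time gave bounds of 11.3-fold to 17.8-fold at POD5 and 3.23-fold to 3.97-fold at POD8. With normexp background correction the fitted folds were 6.23 at POD5 and 2.39 at POD8. Both were below these bounds, so the bounds do not hold for that correction, which adds an offset of 50 to the signals. With 75th percentile scaling the bounds were 13.0-fold at POD5 and 3.25-fold at POD8. With quantile normalization within the comparison they were 12.8-fold and 3.41-fold. The cardiac controls were at least 1751-fold above the hepatic controls, without overlap, as 30.7% of probes lay above them. This bound was 1612-fold to 1894-fold with 1 array left out and 1337-fold with 75th percentile scaling, and normexp background correction gave a fitted fold of 606. The order of the groups was therefore cardiac control, cardiac allograft, hepatic allograft at POD5, hepatic allograft at POD8 and hepatic control, with no overlap between neighbours.

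**Figure D1:**
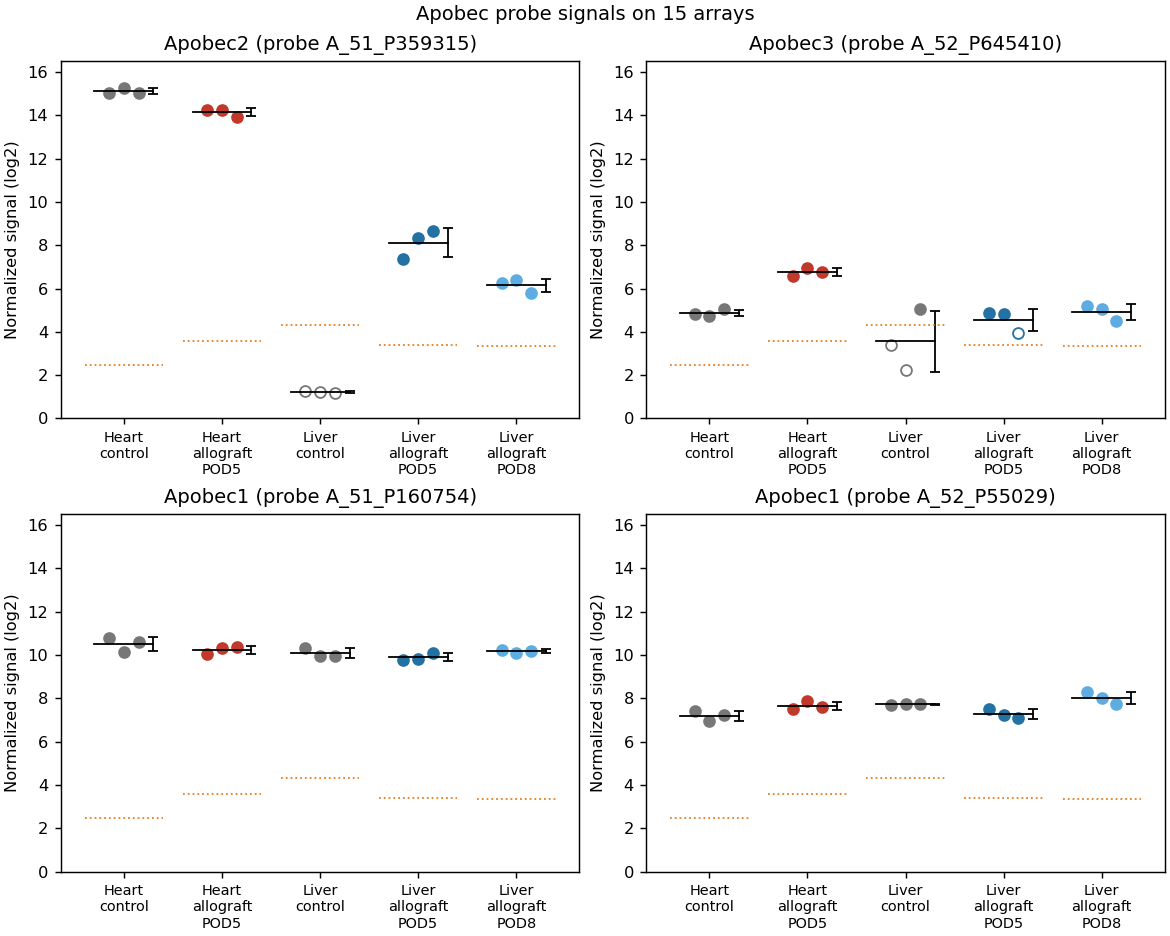
Quantile normalized log2 signal (vertical axis) of each Apobec probe on 15 arrays in 5 groups (horizontal axis), with filled points for arrays well above background, open points for the others, black lines for the mean, bars for the SD, and dotted lines for the mean of the weakest signals well above background. Apobec2 fell from 15.11 to 14.13 in the heart and was below background only in the hepatic controls, Apobec3 was highest in the cardiac allografts, and neighbouring groups overlapped for both Apobec1 probes.

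Muscle marker genes were set beside Apobec2, because it is itself a muscle gene. In the cardiac allografts 5 of 12 cardiomyocyte markers fell and 0 rose with limma after Benjamini-Hochberg adjustment over all probes, when 15.2% of all genes fell. The median log2 difference of the 12 markers was -0.87, beside 0.03 over all genes. Pln, the inhibitor of the calcium pump of the sarcoplasmic reticulum, fell by 2.19 (adjusted p = 0.00290, limma), and Ryr2, the cardiac calcium release channel, fell by 1.53 (adjusted p = 0.0278, limma). Tnni3, cardiac troponin I, fell by 0.98, and Mb, which encodes myoglobin, fell by 0.81. Myl2, the ventricular regulatory light chain, fell by 0.76. In bulk tissue, fewer cells of a type and less RNA per cell cannot be told apart.

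Of 12 skeletal muscle markers, 0 rose and 1 fell in the cardiac allografts, with a median difference of -0.58. That gene was Ckm, the creatine kinase of muscle, which fell by 2.60 (adjusted p = 0.0350, limma). Among 5 muscle regulatory factors, Myog passed the test as lower, but it was not well above background on any cardiac array.

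The muscle lists were then examined in the hepatic allografts. Myh6, Myl2, Mb and Ryr2, defining markers of cardiomyocytes, were not well above background on any of the 9 hepatic arrays. The summed level of the 12 cardiomyocyte markers was 3094 to 4596 in the POD5 allografts, 3499 to 3765 in the POD8 allografts and 3339 to 3845 in the controls, against 1527490 to 1775370 in the cardiac controls. From 6 to 7 of the 12 markers were above background on an allograft array and 5 to 8 on a hepatic control array.

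At POD5, 1 of the 12 cardiomyocyte markers rose and 1 fell, when 2.5% of all genes rose and 0.808% fell. Actc1, cardiac alpha actin, rose by 1.77 (adjusted p = 0.0435, limma), and with any 1 allograft left out 0 of the 12 markers were called. The marker that fell at POD5 was Ryr2, which was below background in both groups. At POD8, 0 rose and 1 fell, when 3.54% of all genes rose and 1.55% fell. This was Tnnt2, cardiac troponin T, which was at least 3.09-fold lower (adjusted p = 0.0342, limma), and 2 of 3 control arrays measured it. The list's median difference was -0.33 at POD5 and -0.43 at POD8, beside -0.08 and -0.11 over all genes.

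Of the 12 skeletal muscle markers, 0 passed the test in the hepatic allografts at POD5, and at POD8 only Myh1, a fast myosin heavy chain, did, falling by 0.79 (adjusted p = 0.0492, limma). Their summed level was 639 to 684 at POD5, 630 to 674 at POD8 and 502 to 705 in the hepatic controls. Of the 5 muscle regulatory factors 0 were called at either day, and their median difference was 0.32 at POD5 and 0.01 at POD8. The widest difference among them at POD5 was 1.40 for Myod1 (adjusted p = 0.195, limma), which was above background on no hepatic array.

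**Figure D2:**
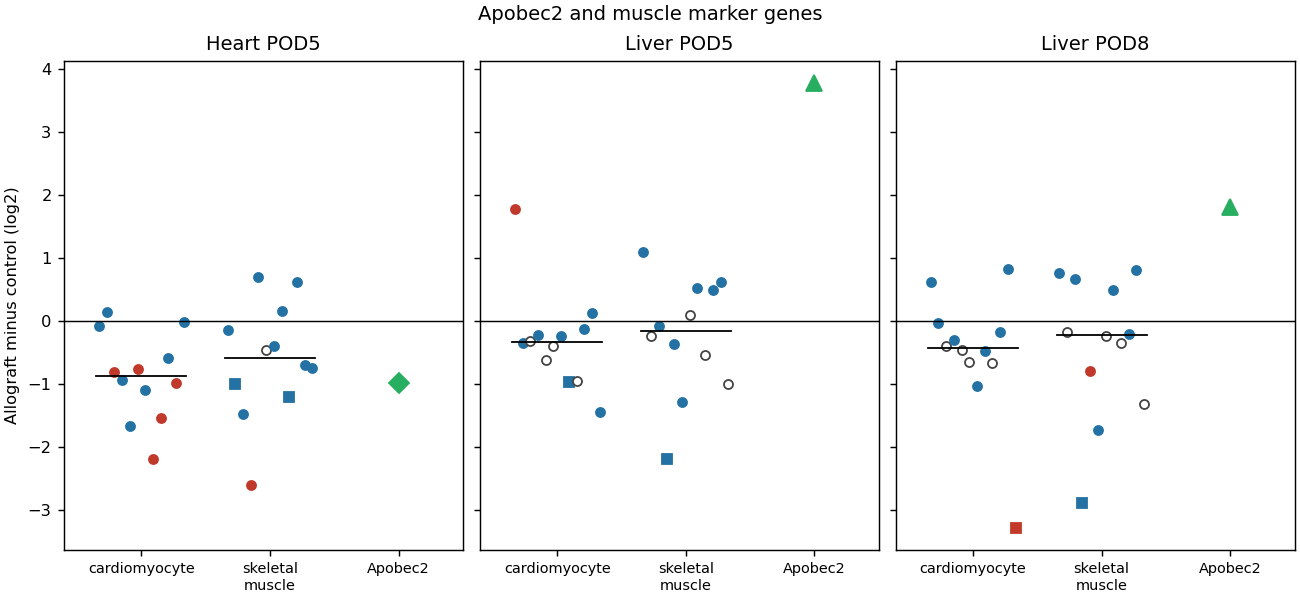
Log2 difference between allografts and controls (vertical axis) for each muscle marker gene and Apobec2 (horizontal axis) in the heart at POD5 and hepatic allografts of both days. Red points passed the test, blue points did not, open points were below background in both groups and squares in 1 group, black lines are medians, the diamond is the measured Apobec2 difference and triangles are its lower bounds. The cardiomyocyte median was -0.87 in the heart and -0.33 and -0.43 in the liver. Apobec2 was chosen by its signal on these arrays, so its place relative to the markers is a description and no test.

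The genes whose levels followed Apobec2 most closely were ranked by Pearson's r over the 15 arrays, among 21570 genes. They were Smim3 (r = 0.988), the actin-binding twinfilin gene Twf2 (r = 0.987), the cationic amino acid transporter Slc7a1 (r = 0.986), the hyaluronan synthase Has2 (r = 0.986) and the potassium channel subunit Kcne4 (r = 0.986). The 15 arrays share 5 groups and 2 organs, and 1215 genes had r above 0.9 with Apobec2. Within the 6 cardiac arrays r ranged from -0.36 for Has2 to 0.82 for Kcne4, and within the 9 hepatic arrays from 0.94 for Kcne4 to 0.97 for Slc7a1.

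Apobec3 rose in the cardiac allografts. Its processed signals were 70.9, 52.0 and 67.8 in the cardiac controls and 161, 106 and 182 in the allografts, with log2 normalized levels of 4.84, 4.75 and 5.03 against 6.56, 6.93 and 6.76. All allografts lay above all controls, as 29.1% of probes did. The difference was 1.88 on the log2 scale (SE 0.14, 3.68-fold, adjusted p = 0.00124 with limma and Benjamini-Hochberg adjustment over 41025 probes). With normexp background correction it was 0.88 (adjusted p = 0.000546, limma). Of the 3 Apobec probes tested here, this was the only 1 called, when 32% of all probes were called in either direction.

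Hepatic Apobec3 signals were near the background. They were 2.67, 1.86 and 19.1 in the controls, where only control 3 was well above background, and 35.4, 30.6 and 11.0 at POD5, where allograft 3 was not. At POD8 they were 30.3, 28.9 and 25.3, all well above background. The log2 levels were 3.39, 2.24 and 5.05 in the controls, 4.88, 4.82 and 3.94 at POD5 and 5.17, 5.06 and 4.48 at POD8. Both hepatic allograft groups overlapped the controls because of control 3.

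The hepatic difference of Apobec3 was 0.99 at POD5 (95% interval -0.92 to 2.89, adjusted p = 0.520, limma) and 1.34 at POD8 (95% interval -0.52 to 3.21, adjusted p = 0.356, limma). These intervals include the cardiac value of 1.88. Without hepatic control 3 the differences were 1.73 (adjusted p = 0.135, limma) and 2.09 (adjusted p = 0.0754, limma). Without hepatic control 2 they were 0.33 (adjusted p = 0.811, limma) and 0.68 (adjusted p = 0.544, limma). With normexp background correction they were 0.28 and 0.27. On the slide that held 2 POD8 allografts and 2 controls, the POD8 difference was 2.30 (adjusted p = 0.144, limma). Apobec3 was called in neither hepatic comparison, in which 3.16% and 4.97% of all probes were called.

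The cardiac response of Apobec3 exceeded the hepatic POD5 response by 0.89 (95% interval -0.92 to 2.70, adjusted p = 0.487, limma interaction), a test that called 13.7% of all probes. This value was 0.15 without hepatic control 3 and 1.55 without hepatic control 2, and was called in neither case. Between the organs, cardiac controls were 1.31 above hepatic controls (adjusted p = 0.187, limma), a difference that was 2.06 without hepatic control 3 (adjusted p = 0.0150, limma) and 0.65 without hepatic control 2 (adjusted p = 0.375, limma). The order of the group means was cardiac allograft, hepatic POD8 allograft, cardiac control, hepatic POD5 allograft and hepatic control. Only the step below the cardiac allografts was free of overlap.

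**Figure D3:**
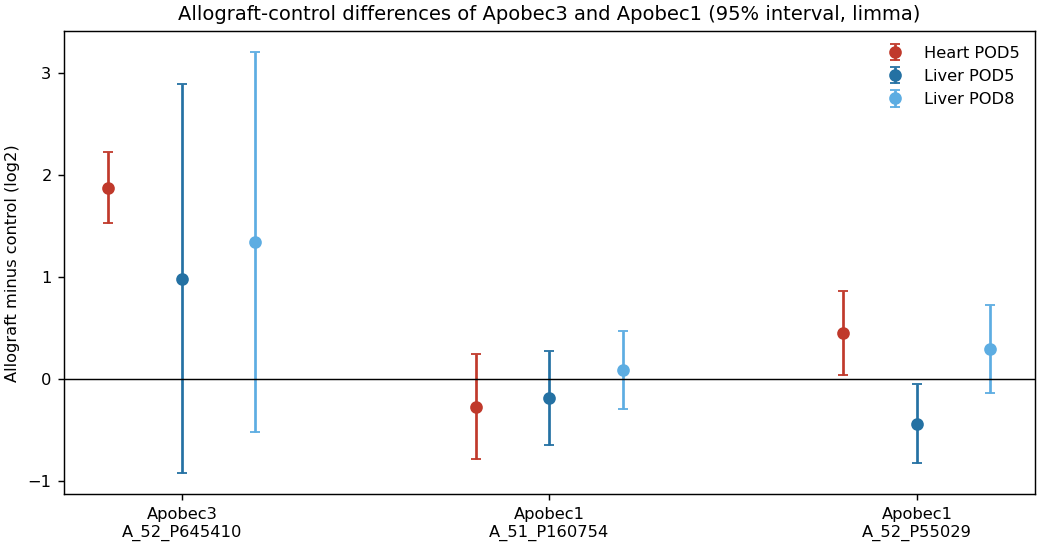
Log2 difference between allografts and controls (vertical axis) with its 95% interval from limma, for the Apobec3 probe and the 2 Apobec1 probes (horizontal axis) in the heart at POD5 and hepatic allografts of both days. Apobec3 was 1.88 higher in the heart, its hepatic intervals crossed 0, and the 2 Apobec1 probes differed in sign in the heart.

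Genes that restrict retroviruses and other viruses were examined as a list beside Apobec3. In the cardiac allografts 8 of 10 rose and 0 fell, when 15.5% of all genes rose, and the median difference was 1.47 beside 0.03 over all genes. Samhd1, which breaks down the deoxynucleotides needed for reverse transcription, rose by 3.38 (adjusted p = 0.000647, limma). Isg15, an interferon-induced ubiquitin-like modifier, rose by 2.28 (adjusted p = 0.00499, limma). Bst2, which tethers budding virions to the cell, rose by 2.06, and the RNA helicase Mov10 rose by 1.71. The members that did not pass were Eif2ak2 at 0.70 and Rsad2 at 0.53.

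In the hepatic allografts 1 of these 10 genes rose at POD5 and 3 at POD8, when 2.5% and 3.54% of all genes rose. At POD5 this was Samhd1, at 2.47 (adjusted p = 0.0145, limma), a call lost when any 1 allograft was left out, and the list's median difference was 0.91. At POD8 Samhd1 rose by 2.78, Isg15 by 1.97 and Trim30a, an interferon-induced TRIM family gene, by 1.97 (adjusted p = 0.00262, limma), and the median was 0.94. Without POD8 allograft 1 or 2 only 1 gene was called there, without hepatic control 1 there were 5, and 0 were called on the shared slide alone. Mov10 did not pass the test in the liver, with -0.15 at POD5 and -0.03 at POD8. The interaction was called for 1 of the 10 genes, when 6.76% of all genes were called as higher in the heart. This gene was Mov10, at 1.86 (adjusted p = 0.0133, limma).

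T cell markers were higher in the same allografts. In the heart 9 of 9 rose, when 15.5% of all genes did, with a summed level of 11700 to 18457 in the allografts against 496 to 708 in the controls. In the liver 7 of 9 rose at each day, when 2.5% and 3.54% of all genes did, with sums of 7974 to 13313 at POD5, 6949 to 8817 at POD8 and 515 to 612 in the controls. All 9 markers were above background on every allograft array, and Cd8a and Cd28 were above background on no hepatic control array. The 7 hepatic calls at POD5 fell to 4 without allograft 1 and to 1 without allograft 2, and at POD8 0 were called on the shared slide alone. The part of these cells in the Apobec2 and Apobec3 signals was not tested.

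Markers of B cells and macrophages were examined beside them. Of 8 B cell markers, 1 was called higher in the heart, when 15.5% of all genes rose and 15.2% fell. This gene, Blk, was below background on all cardiac arrays. In the liver 0 were called at POD5 and 1 at POD8, when 2.5% and 3.54% of all genes rose. The latter was Cd22, which rose by 1.56 (adjusted p = 0.0361, limma). Of 7 macrophage markers, 1 rose in the heart, Fcgr1 by 1.44, and 1 fell, Cd163 by 4.47. The median difference there was -0.06, and the summed level was 63137 to 89270 in the allografts and 36655 to 56489 in the controls. In the liver Mpeg1 rose by 1.71 at POD5 and 1.92 at POD8, and the median difference of the 7 was 1.49 and 1.76. Their summed level was 43608 to 54099 at POD5, 55473 to 61251 at POD8 and 9584 to 22810 in the hepatic controls, so both allograft groups lay above the controls. The part of these cells in the Apobec signals was likewise not tested. Of 8 hepatocyte markers, 0 were called in the liver at either day.

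**Figure D4:**
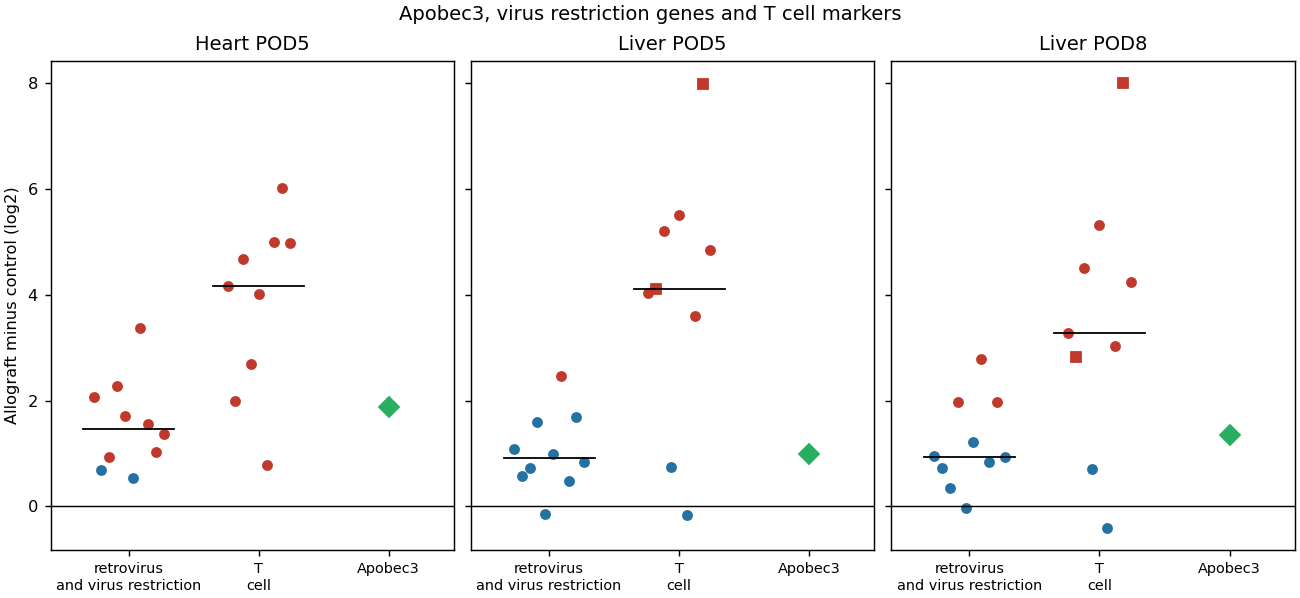
Log2 difference between allografts and controls (vertical axis) for virus restriction genes, T cell markers and Apobec3 (horizontal axis) in the heart at POD5 and hepatic allografts of both days. Red points passed the test, blue points did not, squares mark genes below background in 1 group, black lines are medians and the diamond is Apobec3. The restriction median was 1.47 in the heart and 0.91 and 0.94 in the liver, and Apobec3 was at 1.88, 0.99 and 1.34.

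The genes most like Apobec3 over the 15 arrays were Fubp1, a DNA-binding regulator of transcription (r = 0.940), Klra4, a natural killer cell receptor gene (r = 0.931), a transcript listed as XM_484782 (r = 0.930), the TRIM family gene Trim30b (r = 0.923) and Ifit3b, an interferon-induced gene (r = 0.921). Only 16 of 21570 genes had r above 0.9. Within the 6 cardiac arrays these r ranged from 0.91 to 0.99, and within the 9 hepatic arrays from 0.78 to 0.91.

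Since interferon-induced genes were among these, the Apobec3 promoters were searched for the letters GAANNGAAA on both strands. Their spacing is not that of an interferon-stimulated response element, so neither a match nor its absence speaks to that element. RefSeq gave Apobec3 2 starts on the plus strand of chromosome 15. Neither had GAANNGAAA in the 250 bases before it, where 6.31% of promoters hold these letters. The 250 bases before the upstream start do read agtttccctttctc, which has the spacing of the response element. How many promoters hold that spacing was not counted. A match to GAANNGAAA began at base 38 from the upstream start. It is shown in capitals as it reads on the plus strand, within chr15:79892437-79892457 of GRCm38.p6.
Apobec3: gaggtcagTTTCACTTCtggg
With these 50 bases after the start included, 7.52% of promoters held such a match. The Apobec2 promoter printed above also held 1, beginning 124 bases before the start and left in lower case.

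Apobec1, the editing enzyme of apolipoprotein B messenger RNA, was well above background in both organs. The brighter probe had log2 levels of 10.79, 10.13 and 10.58 in the cardiac controls and 10.03, 10.30 and 10.37 in the cardiac allografts. In the liver the levels were 10.34, 9.94 and 9.96 in the controls, 9.76, 9.81 and 10.11 at POD5 and 10.23, 10.08 and 10.21 at POD8. Every pair of neighbouring groups overlapped.

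None of the 3 allograft comparisons called the brighter Apobec1 probe. The differences were -0.27 in the heart (95% interval -0.78 to 0.25, adjusted p = 0.374, limma), -0.19 in the POD5 livers (95% interval -0.64 to 0.27, adjusted p = 0.606, limma) and 0.09 at POD8 (95% interval -0.29 to 0.47, adjusted p = 0.738, limma). The 2 organs' controls differed by 0.42 (95% interval -0.14 to 0.98, adjusted p = 0.177, limma).

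The second probe of the same transcript did not follow the brighter probe. Its levels were 7.39, 6.96 and 7.22 in the cardiac controls and 7.50, 7.86 and 7.58 in the cardiac allografts, a difference of 0.46 (adjusted p = 0.0885, limma) with all allografts above all controls, as 29.1% of probes were. In the liver they were 7.68, 7.72 and 7.74 in the controls, 7.52, 7.22 and 7.10 at POD5 and 8.30, 7.99 and 7.73 at POD8. All POD5 allografts lay below all controls, as 18.8% of probes did, and the difference was -0.43 (adjusted p = 0.204, limma) and 0.30 at POD8 (adjusted p = 0.373, limma). By this probe the cardiac controls were 0.52 lower than the hepatic controls, at -0.52 (adjusted p = 0.0309, limma), in a comparison that called 48.2% of all probes. The probes differed in sign in the cardiac, the control organ and the interaction comparisons, so no direction can be given for Apobec1.

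The genes most like the brighter Apobec1 probe were Prr15 (r = 0.875), the Wnt pathway agonist Rspo1 (r = 0.838), the platelet glycoprotein gene Gp9 (r = 0.835), Epyc (r = 0.823) and Mybph (r = 0.814). No gene, 0 of 21570, reached r above 0.9 over the 15 arrays.

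Genes that partner Apobec1 in editing were set beside it. A1cf, the RNA-binding complementation factor, was not well above background on any of the 6 cardiac arrays, and its log2 level was 10.88 ± 1.48 (SD, n = 3) in the hepatic controls, 9.45 ± 0.59 (SD, n = 3) at POD5 and 9.81 ± 0.04 (SD, n = 3) at POD8. It was at least 340-fold lower in the cardiac than in the hepatic controls (adjusted p = 0.000349, limma). This bound was 200.3-fold without hepatic control 1 and 560-fold without hepatic control 3, since the levels of the hepatic controls were 12.40, 10.79 and 9.44. Apob, whose transcript is edited, was 15.30 ± 0.70 (SD, n = 3) in the hepatic controls and 15.33 and 15.50 at POD5 and POD8. It was above background on 1 of 3 cardiac control arrays and on 0 of 3 cardiac allograft arrays.

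Of the 8 partner and target genes measured, 2 rose and 5 fell in the cardiac against the hepatic controls, when 24.1% of all genes rose and 23.5% fell. Rbm47, an editing cofactor, was among those lower in the heart, at -3.94 (adjusted p = 0.000103, limma). Hnrnpab, which encodes an RNA-binding protein, was not called, at 0.36 (adjusted p = 0.119, limma). In the cardiac allografts Khsrp, a KH-domain RNA-binding protein gene, rose by 1.31 (adjusted p = 0.00332, limma) and Syncrip, which encodes heterogeneous nuclear ribonucleoprotein Q, fell by 1.61 (adjusted p = 0.0141, limma). In the hepatic allografts 0 of the 8 were called at either day.

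Apobec4, a further member of the family, was well above background on 0 of 15 arrays, so no fold is given for it.

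Other deaminases and the repair genes that remove deaminated bases were examined as further lists. Of 10 other base and nucleoside deaminases, 3 rose and 3 fell in the cardiac allografts, when 15.5% and 15.2% of all genes did. Adar, which edits adenosine in RNA, rose by 1.58 (adjusted p = 0.00220, limma), and its relative Adarb1 fell by 2.07 (adjusted p = 0.000532, limma). Dctd, which deaminates deoxycytidylate, rose by 1.20, and Adat3, a subunit of a transfer RNA deaminase, rose by 1.15. Cda, the cytidine deaminase of pyrimidine salvage, fell by 1.82 and Cdadc1 fell by 1.09.

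In the hepatic allografts 1 of the 10 passed the test at POD5, Dctd (adjusted p = 0.0265, limma), when 2.5% of all genes rose. It was above background on 2 of 3 allograft arrays and 0 of 3 control arrays, and the weakest signals above background on the control arrays exceeded its allograft mean, so no fold is given. At POD8 Cda fell by 1.25 (adjusted p = 0.0294, limma), 1 of the 10 when 1.55% of all genes fell. The interaction was called for 3 of the 10, higher in the heart for Adar and Adat3 and lower for Adarb1, when 6.76% and 7.07% of all genes were. Of 7 uracil and mismatch repair genes, the thymine glycosylase Tdg rose by 1.65 (adjusted p = 0.00133, limma) and the uracil glycosylase Ung rose by 1.37 (adjusted p = 0.00214, limma) in the heart, where 15.5% of all genes rose, and 0 were called in the liver at either day. The interaction was called for the same 2 of 7, both higher in the heart, with 1.75 for Ung (adjusted p = 0.00488, limma) and 1.51 for Tdg (adjusted p = 0.00526, limma).

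Between the hepatic allografts at POD8 and POD5, 0 of 41165 probes were called by limma with Benjamini-Hochberg adjustment (0%), and 5299 had an unadjusted p under 0.05. SFC, the standardized fold change of the study, called 213 after Bonferroni adjustment, and the methods' t-test had 4220 unadjusted and 3 adjusted calls. Apobec3 differed by 0.36 (adjusted p = 0.637, limma) and the brighter Apobec1 probe by 0.28 (adjusted p = 0.442, limma).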

How the data were processed

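The members and gene lists were chosen with earlier results of these data known. Each deposited file gave a processed intensity per spot and the median intensities of spot and background, from Agilent Feature Extraction 10.5.1.1, with local background subtracted and no normalization between arrays. Spots marked as outliers (47 to 113 per array) were left out, 0 were saturated, and log2 values of a probe were averaged and quantile normalized over the 15 arrays. The study's methods name natural logs and normalization, and log2 was used here.

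Probes were named through the transcript accession in the files and a RefSeq table of GRCm38.p6, which matched 26690 of 41174 probes. A gene was read from its brightest probe. Probes were compared within each pair of groups with limma 3.58.1 in R 4.3.3 (two-sided, 95% intervals) and called at a Benjamini-Hochberg adjusted p under 0.05 over all probes. The interaction was fitted over 4 groups. An exact permutation test of 3 against 3 arrays cannot go below p = 0.1, and was not used. The number of arrays limits the precision. A lower bound set the brighter group's mean against the weakest signal well above background on each array of the dimmer group.

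Genes were named by rule: every probe of the members, in each list up to 4 called genes with the largest absolute difference per comparison, defining markers at background, Apobec4, A1cf and Apob, and the 5 genes with the highest r to each member. Further genes of a list were named after their values were seen. List genes without a matched probe (Dnajb11, Tf, Cps1 and Cd68) were not analysed here, and 1 further gene of the rule is not reported here.

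Alternatives were 75th percentile scaling, quantile normalization within a comparison, normexp correction (offset 50) on median signals, a filter on dim probes, 1 fit of 5 groups, a trended and robust prior, blocks for replicate number and slide, SFC (bin 1000), the methods' t-test, Bonferroni adjustment, the other Apobec1 probe and leaving out each array. Slide as a fixed block, the shared slide alone, the random slide block for Apobec2 keeping outlier spots and leaving out each array for the A1cf bound were added after the data were seen. The limma fit was tested on simulated data. Plots used matplotlib 3.10.9 (Python 3.11.15).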

Additional observations from a re-analysis of the deposited data

Results flagged for a closer look

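The second Apobec1 probe, A_52_P55029, differed between the organs in its response. Its POD5 response was 0.89 higher in the heart than in the liver on the log2 scale (95% interval 0.37 to 1.41, adjusted p = 0.0344 with the limma interaction), with all 3 cardiac allografts above all cardiac controls, as 29.1% of probes were, and all 3 hepatic allografts below all hepatic controls, as 18.8% of probes were. The interaction called 13.7% of all probes. The brighter probe of the same transcript gave -0.08 (adjusted p = 0.875, limma). Over 22 alternatives the value for the second probe lay between 0.54 and 1.01, and the adjusted p was under 0.05 in 12 of them and not in 10, including slide as a random block (adjusted p = 0.0758) and the replicate block (adjusted p = 0.136).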

How the results depend on the processing

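The cardiac rise of Apobec3 kept its direction and its call under all alternatives run, except that it missed the threshold with a Bonferroni adjustment (1.88, adjusted p = 0.969, limma) and with SFC (1.92, adjusted p = 1). Its value was 0.88 with normexp against 1.88, and 1.79 to 2.14 under the others. The hepatic Apobec3 differences stayed positive and uncalled. The POD5 filter on dim probes removed Apobec3, so it gave no value there, and the POD8 minus POD5 difference turned to -0.0076 under normexp. Against the hepatic controls, the fitted Apobec2 difference was 6.88 at POD5 and 4.92 at POD8, values that rest on signals below background. It was 5.83 and 3.83 with the 75th percentile, 6.28 and 4.44 with quantile normalization within the comparison, and 2.64 and 1.26 with normexp. The lower bound was 13.0-fold and 3.25-fold with the 75th percentile. The cardiac minus hepatic response was -7.86 for Apobec2, -6.68 with the 75th percentile and -3.59 with normexp, and -8.24 (without hepatic POD5 allograft 1) to -7.59 with an array left out. The cardiac fall of Apobec2 ranged from -1.04 to -0.85.

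For Apobec1, the other probe turned the cardiac difference to 0.46, the control organ difference to -0.52 and the interaction to 0.89. Without an array the interaction ranged from -0.264 to 0.0636, turning positive without cardiac allograft 1, cardiac control 1 or hepatic POD5 allograft 3, with 0.0235, 0.0636 and 0.0275. Replicate numbers did not pair the arrays (r of same-numbered deviations from -0.12 to 0.04). With the replicate number as a block, the adjusted p of cardiac Apobec3 was 0.0184, no call of Apobec3 or the brighter Apobec1 probe changed, and the T cell calls in the liver went from 7 to 0 at each day.

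The 75th percentile scaling moved the median difference of all probes from 0.02 to 0.47 in the heart, from -0.07 to -0.38 in the liver at POD5 and from -0.08 to -0.46 at POD8. Of called probes, the share that was higher went from 48.7% to 74.2% in the heart and from 71% to 18.4% in the liver at POD8. In the heart it left 3 of the 5 cardiomyocyte calls, as did leaving out any 1 control and the methods' t-test, and SFC and the Bonferroni adjustment left 0. Of the restriction genes, SFC and the Bonferroni adjustment called 0 in the heart, and leaving out an array gave 0 calls in the liver at POD5 without any 1 allograft, and 1 to 5 at POD8, with 1 without allograft 1 or 2 and 5 without control 1. The T cell calls in the liver at POD5 went from 7 to 4 without allograft 1 and to 1 without allograft 2. The cause of these changes was not tested.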
